A study of Mus musculus with 24 samples.

Results

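The genes described here are Foxo3, Foxo1, Pik3ca, Pdpk1, Akt1, Akt2, Tsc1, Tsc2 and Mtor, which carry the growth signal of the PI3K pathway from the membrane to mTOR and the FOXO transcription factors. They were chosen by name for this function, and all 9 were found among the 16572 gene names of the RNA-seq table, each in 1 row. The oocytes sequenced were of class IV, the largest by size, and came from ovaries of 7-day-old C57BL/6 Barb mice, as the labels give them. The study spells the strain Babr, and its methods state a cross with SV129 mice. The ovaries were dissociated and plated, and the oocytes were grown free of follicles in 5% O2 for 9 days or in 20% O2 for 14 days. The labels give 2 libraries per condition and a diameter of 60 to 70 μm for both, whereas the methods of the study give a smaller diameter for the class IV oocytes of 20% O2. Medium was changed every 24 hours in 5% O2 and every 48 hours in 20% O2. Oxygen, culture time, medium change and oocyte size therefore differ together between the conditions and cannot be told apart. The authors deposited 1 column per condition, so that no value below has an SD, a replicate check or a p-value.

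In a growing cell, receptor signalling activates PI3K, which makes a membrane lipid that brings the kinases PDK1 (encoded by Pdpk1) and AKT together. Active AKT phosphorylates FOXO factors, which then leave the nucleus, and it phosphorylates TSC2, which relieves the brake that the TSC1-TSC2 complex holds on mTOR complex 1, a driver of protein synthesis and cell growth. In the mouse ovary this pathway is known for the awakening of primordial follicles, in which FOXO3 in the oocyte nucleus keeps the follicle dormant. The study also treated oocytes with LiCl because of its reported action on FOXO3 phosphorylation. The methylation libraries of those oocytes hold no transcript level and are not analysed here.

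Values are given as RPM (the reads of a gene scaled to a fixed total of reads per column), and the level of 1 gene is compared with that of another only as RPKM (RPM per kb of annotated exon). Differences are IV 5% O2 minus IV 20% O2 on log2(RPM + 1), and bracketed intervals are 95% intervals of the log2 ratio of the reads without a pseudocount. These intervals cover counting error only and compare the libraries, not the conditions. The columns rest on 132185258 reads for IV 5% O2 and on 40875358 reads for IV 20% O2. Of these, 109629353 and 29754908 lay on the listed genes, a larger share at 5% O2. RPM is scaled to the full totals, so this raises all values at 5% O2 relative to those at 20% O2. It bears on the counts of higher and lower genes below. Each member had at least 1681 reads in each column, so that counting error was small beside most of the differences. Over the 14704 genes that averaged 1 RPM or more, which include all 9 members, the median difference was 0.26, and differences relative to this median gene are also given. All 12 oocyte markers were present, with summed levels of 9807 RPM at 5% O2 and 13528 RPM at 20% O2. Of these, 5 were higher at 5% O2, and much of the lower sum lay in Zp2 (1537 and 3807 RPM) and Zp3 (690.0 and 1501 RPM). Lower abundance of a transcript in such pools can mean fewer cells that express it or less RNA per cell, and these cannot be told apart.

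Across the pathway, the transcripts of the AKT kinases Akt1 and Akt2 were more abundant in 5% O2 oocytes, while those of Pdpk1 and Tsc2 were less abundant. Akt1 was 2.70-fold higher, Akt2 was 2.16-fold higher, Tsc2 was 2.06-fold lower and Pdpk1 was 1.94-fold lower at 5% O2. The other 5 members lay between a difference of -0.40 and 0.26. Hence 3 of the 9 members (Akt1, Akt2 and Tsc2) were at least 2-fold apart, against 27.9% of all genes tested, and a count of this size is near the background. At least 2-fold higher values were found for 2 members, against 18.7% of genes, and a lower value of this size for 1 member, against 9.22% of genes. After median-ratio scaling of the columns, 1 member was higher (Akt1, against 12.0% of genes) and 2 lower (Pdpk1 and Tsc2, against 13.6%). Quantile normalization gave the same members, against 12.2% and 12.4% of genes. At any size, 6 members were lower at 5% O2, against 37.4% of genes, and the median of the members was -0.19 against 0.26 for all genes.

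Per length, Akt1 was the most abundant member in 5% O2 oocytes with 52.9 RPKM, but only the fourth in 20% O2 oocytes with 19.5 RPKM. Foxo3 was the most abundant member at 20% O2 with 45.6 RPKM and the next after Akt1 at 5% O2 with 34.5 RPKM. Tsc2 was the least abundant in both, with 2.40 RPKM at 5% O2 and 5.05 RPKM at 20% O2. Below Foxo3 at 20% O2, Foxo1 (23.8 RPKM), Pdpk1 (21.9 RPKM) and Akt1 lay close together, then Tsc1 (15.7 RPKM) and Mtor (12.9 RPKM), and Pik3ca (6.79 RPKM) and Akt2 (5.77 RPKM) came before Tsc2. In IV 5% O2, Foxo1 (20.8 RPKM) and Tsc1 (14.2 RPKM) were followed by Akt2 (12.6 RPKM), Pdpk1 (11.2 RPKM), Mtor (9.78 RPKM) and Pik3ca (8.17 RPKM). The order of neighbours has no check between libraries.

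**Figure D1:**
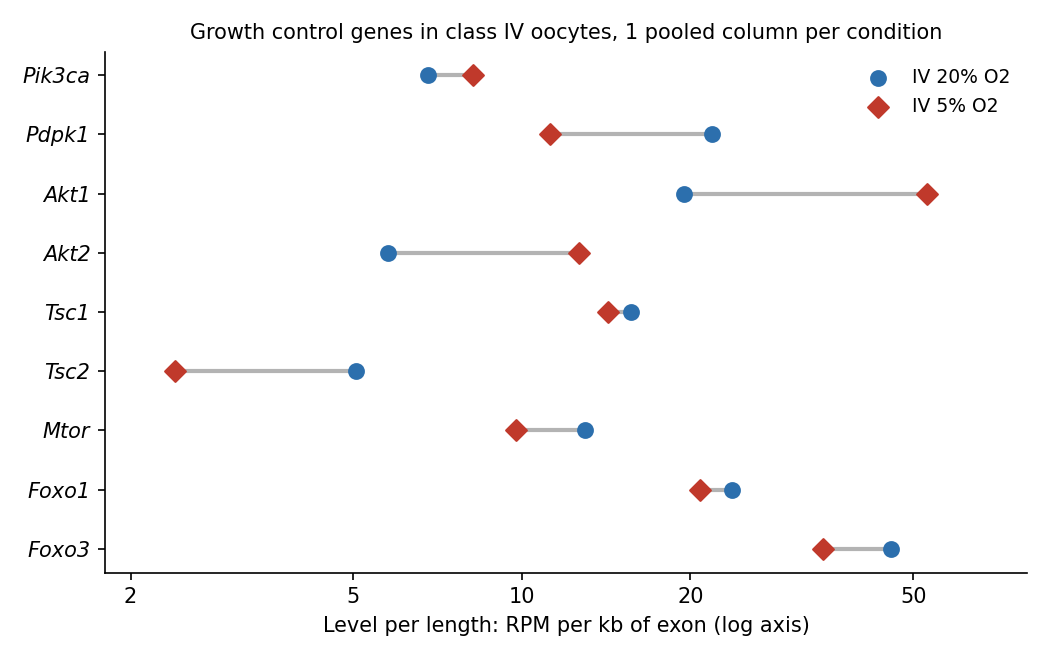
Level of each of the 9 genes in RPM per kb of exon (log axis), with 1 point per condition for the pooled column and a grey line between the conditions. The points of Akt1 (52.9 and 19.5 RPKM) and Akt2 are far apart with IV 5% O2 higher, those of Pdpk1 and Tsc2 are far apart with IV 20% O2 higher, and those of Tsc1, Foxo1 and Pik3ca almost meet.

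Pik3ca, which encodes the catalytic subunit p110 alpha of PI3K, had 74.3 RPM at 5% O2 (9818 reads) and 61.7 RPM at 20% O2 (2522 reads). It lies on chromosome 3 of GRCm38 from 32397671 to 32468486. Its difference of 0.26 (interval 0.20 to 0.33) was that of the median gene, and median-ratio scaling of the columns turned it to -0.05. Pik3ca contributed little to the class I catalytic subunits of these oocytes. Per length it made up 6.07% of the summed level of Pik3ca, Pik3cb, Pik3cd and Pik3cg at 5% O2 and 7.52% at 20% O2. Pik3cd, the gene of p110 delta, best known from leukocytes, made up 89.5% and 87.7%, with 754 RPM at 5% O2 and 495 RPM at 20% O2. Among the regulatory subunits, which stabilise p110, Pik3r2 had 27.0 RPM at 5% O2 and 6.43 RPM at 20% O2, a difference of 1.91. Its share of the summed level of Pik3r1, Pik3r2 and Pik3r3 was 21.1% at 5% O2 and 8.73% at 20% O2. The level of Pik3r3, the largest part of this sum, is uncertain, because 24.3% of its exonic bases are shared with a gene on the same strand. Pik3r2 was the only 1 of 11 PI3K subunit genes tested that was 2-fold apart (27.9% of all genes), and the median of this list was 0.41 against 0.26 for all genes.

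Pdpk1 encodes PDK1, the kinase that phosphorylates the activation loop of AKT. It lies on chromosome 17 from 24073680 to 24150924 and had 123 RPM at 5% O2 (16258 reads) and 239 RPM at 20% O2 (9771 reads). The difference of -0.95 (interval -0.99 to -0.92) was just under 2-fold, but as measured from the median gene it was -1.21. It passed 2-fold after median-ratio scaling (-1.27) and after quantile normalization (-1.16). Of all genes tested, 9.79% had a lower difference than Pdpk1.

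Akt1, on chromosome 12 from 112653821 to 112674884, encodes the AKT isoform that is known for its role in cell growth and survival. It had 217 RPM at 5% O2 (28633 reads) and 79.7 RPM at 20% O2 (3259 reads). This difference of 1.43 (interval 1.39 to 1.49), or 1.17 as measured from the median gene, was the largest among the members and stayed over 2-fold with each scaling, at 1.11 after median-ratio scaling and 1.19 after quantile normalization. A higher difference was found for 8.63% of all genes tested.

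Akt2, on chromosome 7 from 27591552 to 27640826, encodes the isoform known for insulin-dependent glucose uptake. It had 90.2 RPM at 5% O2 (11918 reads) and 41.1 RPM at 20% O2 (1681 reads), a difference of 1.11 (interval 1.06 to 1.21). Measured from the median gene this was 0.86, and after median-ratio scaling (0.80) or quantile normalization (0.92) Akt2 was under 2-fold. In addition, 10.4% of the 100-base windows of its annotated exons occur elsewhere in the genome, whereas no such window was found in Akt1.

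The ratio of one gene to another within a column does not change when the column is scaled by a single factor. Per length, the ratio of Akt1 to Akt2 was 4.18 at 5% O2 and 3.37 at 20% O2, a log2 change of 0.31 (interval 0.22 to 0.40), so both were higher at 5% O2 but not equally.

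The promoters of the 4 members with the largest differences are shown because Akt1 and Akt2 differed in one direction and Pdpk1 and Tsc2 in the other. Each window is the RefSeq sequence (GRCm38.p6) on the strand of the gene, from 250 bases before to 50 bases after the annotated start nearest to the start of the gene in the table. Windows were found for all 9 members, but the start used for Pik3ca lies 606 bases from that of the gene in the table. Akt1, Akt2, Pdpk1 and Tsc2 have 9, 14, 11 and 22 annotated transcripts. Whether the starts shown are those used in oocytes was not tested. Capitals mark the letters searched on both strands, namely GTAAACA (a forkhead motif that FOXO factors recognise), ACGTG and GCGTG (cores of the hypoxia response element) and CACGTG (an E-box, which contains ACGTG). The windows of Akt1 (chr12:112674835-112675134, minus strand), Akt2 (chr7:27591302-27591601, plus strand), Pdpk1 (chr17:24150873-24151172, minus strand) and Tsc2 (chr17:24632578-24632877, minus strand) read as follows.
Akt1: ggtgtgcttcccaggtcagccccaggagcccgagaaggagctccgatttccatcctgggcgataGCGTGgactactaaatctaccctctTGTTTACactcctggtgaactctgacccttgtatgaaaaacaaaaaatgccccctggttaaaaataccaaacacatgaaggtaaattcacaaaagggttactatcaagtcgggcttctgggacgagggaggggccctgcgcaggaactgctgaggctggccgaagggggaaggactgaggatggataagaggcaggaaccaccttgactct
Akt2: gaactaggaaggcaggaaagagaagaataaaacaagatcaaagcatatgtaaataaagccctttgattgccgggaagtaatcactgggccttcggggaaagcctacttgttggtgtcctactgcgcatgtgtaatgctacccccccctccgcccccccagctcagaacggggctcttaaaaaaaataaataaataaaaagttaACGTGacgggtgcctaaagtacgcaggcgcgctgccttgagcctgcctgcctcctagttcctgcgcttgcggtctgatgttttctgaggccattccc
Pdpk1: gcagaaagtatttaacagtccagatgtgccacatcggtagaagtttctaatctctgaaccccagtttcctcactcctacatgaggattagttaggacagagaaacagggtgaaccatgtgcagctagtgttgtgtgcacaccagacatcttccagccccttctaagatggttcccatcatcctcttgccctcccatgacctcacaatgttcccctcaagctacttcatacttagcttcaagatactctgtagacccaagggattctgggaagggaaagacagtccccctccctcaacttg
Tsc2: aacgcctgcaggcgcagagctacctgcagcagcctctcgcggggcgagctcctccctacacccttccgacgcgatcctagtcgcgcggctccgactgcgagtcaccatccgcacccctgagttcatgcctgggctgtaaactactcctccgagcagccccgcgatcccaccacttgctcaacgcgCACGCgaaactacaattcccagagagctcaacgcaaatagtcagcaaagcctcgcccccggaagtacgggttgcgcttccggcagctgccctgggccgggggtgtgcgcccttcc

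GTAAACA was found in the window of Akt1, as its reverse complement, 161 bases before the start, and in no other member. Over the 10831 promoters of tested genes with a window, 2.26% hold it. ACGTG was found in Akt2 (47 bases before the start) and in Pik3ca, and 25.3% of all promoters hold it. GCGTG was found in Akt1, Tsc2, Tsc1, Foxo1 and Foxo3, and 50.4% of all promoters hold it. CACGTG, present in 10.2% of promoters, was found in 0 of the 9 windows. These matches are descriptions of the letters and not binding sites. The 2 AKT windows are poorer in CpG than the median promoter, with 8 CpG sites in Akt1 and 12 in Akt2 against 20. The Pdpk1 window holds 1 CpG site, and only 0.923% of promoters hold fewer, whereas the Tsc2 window holds 29 and 75.1% of promoters hold fewer. The windows of Pdpk1 and Tsc2, genes that were both lower at 5% O2, thus differed in CpG content.

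Tsc1 and Tsc2 encode the partners of the complex that holds mTOR complex 1 in check, TSC2 being the part that acts on the small GTPase RHEB and TSC1 the part that stabilises it. Tsc1, on chromosome 2 from 28641228 to 28691167, had 168 RPM at 5% O2 (22245 reads) and 185 RPM at 20% O2 (7581 reads), a difference of -0.14 (interval -0.18 to -0.10). Tsc2, on chromosome 17 from 24595816 to 24632630, had 23.1 RPM at 5% O2 (3049 reads) and 48.6 RPM at 20% O2 (1985 reads). Its difference was -1.04 (interval -1.16 to -0.99), or -1.30 as measured from the median gene. It was -1.35 after median-ratio scaling and -1.22 after quantile normalization, but a pseudocount of 5 RPM brought it under 2-fold (-0.93). Adding the pseudocount of 1 to RPKM instead of RPM gave -0.83, since the pseudocount then weighs more. Of its exonic bases, 7.20% are shared with Pkd1 on the opposite strand, and the libraries were strand-specific, but whether the counting used the strand is not given in the sources used here. The partners differed unequally between the columns. Per length, Tsc1 had 5.93 times the level of Tsc2 at 5% O2 and 3.10 times at 20% O2, a log2 change of the ratio of 0.93 (interval 0.84 to 1.02). Tbc1d7, the third subunit, which was added after its values were seen, had 14.8 and 10.9 RPM. Within the complex, the share of Tsc2 was 11.8% at 5% O2 and 21.6% at 20% O2.

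Mtor encodes the kinase of both mTOR complexes and lies on chromosome 4 from 148448611 to 148557683. It had 98.8 RPM at 5% O2 (13066 reads) and 131 RPM at 20% O2 (5348 reads), a difference of -0.40 (interval -0.45 to -0.36), or -0.66 as measured from the median gene. Of the partners that define the complexes, Rptor (complex 1) had 53.6 and 60.6 RPM and Rictor (complex 2) had 114 and 144 RPM, both chosen after their values were seen. Per length, the ratio of Mtor to Rictor was 1.45 at 5% O2 and 1.53 at 20% O2, a log2 change of -0.07 (interval -0.14 to -0.01). That of Mtor to Rptor was 2.46 and 2.88, a wider log2 change of -0.23 (interval -0.31 to -0.15).

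Foxo3 encodes the FOXO factor that holds primordial follicles dormant and lies on chromosome 10 from 42181841 to 42276755. It had 261 RPM at 5% O2 (34508 reads) and 345 RPM at 20% O2 (14117 reads). Its difference was -0.40 (interval -0.43 to -0.38), or -0.66 as measured from the median gene, and it stayed between -0.72 and -0.39 under each alternative run. Foxo1, known for its part in granulosa cells and insulin signalling, lies on chromosome 3 from 52268336 to 52353221. It had 180 RPM at 5% O2 (23835 reads) and 206 RPM at 20% O2 (8416 reads), a difference of -0.19 (interval -0.23 to -0.16), or -0.45 as measured from the median gene. Of its exonic bases, 7.78% are shared with a gene on the opposite strand. Foxo3 and Foxo1 together made up most of the family, with 58.7% and 35.4% of the summed level of Foxo1, Foxo3, Foxo4 and Foxo6 at 5% O2 and 64.9% and 33.8% at 20% O2. The rarer factors went the other way. Foxo4 had 8.60 RPM at 5% O2 and 2.74 RPM at 20% O2, a difference of 1.36 that rests on 112 reads at 20% O2, and Foxo6 had 2.53 and 0.416 RPM, a difference of 1.32.

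**Figure D2:**
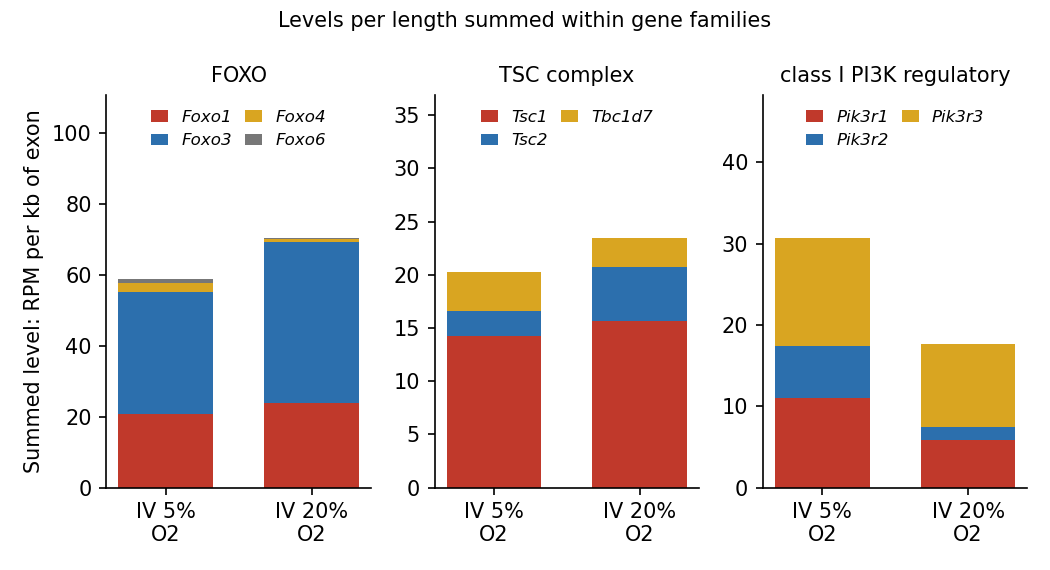
Summed levels in RPM per kb of exon of the FOXO genes, the TSC complex genes and the class I PI3K regulatory genes, with 1 stacked bar per pooled column and a colour for each gene. The FOXO bar reaches 58.7 RPKM at 5% O2 and 70.3 RPKM at 20% O2 and consists mainly of Foxo3 and Foxo1, the TSC complex bar reaches 20.3 and 23.4 RPKM, and the Pik3r2 part is larger at 5% O2.

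Foxo3 and Mtor differed alike between the columns. The ratio of Foxo3 to Mtor was 3.53 per length at 5% O2 and 3.52 at 20% O2, a log2 change of 0.00 (0.000751, interval -0.05 to 0.05). Foxo1 and Tsc1 formed another such pair, with a log2 change of -0.05 (interval -0.10 to 0.00, upper bound 0.000812). These were the 2 of 36 pairs of members whose interval held 0. For 15 of the 36 pairs the ratio changed by at least 2-fold, and 13 of these included Akt1 or Akt2. The widest change was that of Akt1 to Tsc2, from a ratio of 3.85 at 20% O2 to 22.0 at 5% O2, a log2 change of 2.52 (interval 2.42 to 2.61). The change of Akt1 to Pdpk1 was almost as wide, since Pdpk1 had 1.12 times the level of Akt1 at 20% O2 and 0.213 times at 5% O2.

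**Figure D3:**
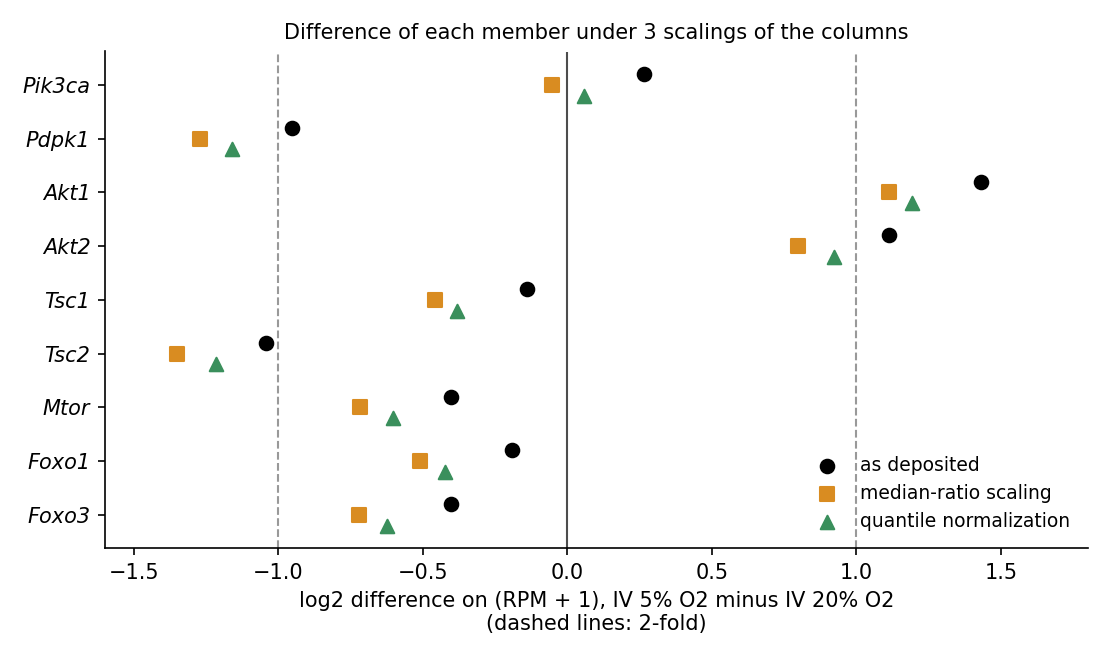
Log2 difference on (RPM + 1) of each member, IV 5% O2 minus IV 20% O2, for the values as deposited, after median-ratio scaling and after quantile normalization, with dashed lines at 2-fold. Both scalings move all members to lower values, Akt1 stays above 2-fold (1.43, 1.11 and 1.19) and Tsc2 below it (-1.04, -1.35 and -1.22), Akt2 and Pdpk1 cross the 2-fold lines, and Pik3ca reaches -0.05 with median-ratio scaling.

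The exons of the members differ in length and base composition. Akt1 (4098 bases of exon, 60.6% GC), Akt2 and Tsc2 belong to the fifth of genes with the highest GC content, which had a median difference of 0.48, against 0.17 in the fifth with the lowest. Across 14692 genes, Spearman's rho between difference and GC content was 0.109, and that with exonic length was 0.00679. Genes are not independent replicates, and the columns share 1 annotation. The 7 members other than Akt1 and Akt2 belong to the fifth with the longest exons, whose median difference was 0.17. Markers of theca and stroma cells summed to 52.0 RPM at 5% O2 and to 17.5 RPM at 20% O2, with 10 of the 11 listed genes higher at 5% O2 and Col1a2, Vim and Dcn without reads at 20% O2. Of these, Cyp11a1, an enzyme of steroid synthesis, had 16.4 and 0.122 RPM, while Cyp17a1, Lhcgr and Col1a1 are not listed in the table. Granulosa markers summed to 42.9 and 29.8 RPM (6 of 7 higher, with Amh and Foxl2 not listed), macrophage markers to 24.9 and 22.6 RPM (3 of 4), endothelial markers to 117 and 285 RPM (3 of 5, with most of the latter sum in Vwf at 248 RPM) and erythroid markers to 2.47 and 1.57 RPM (1 of 2). The part of GC content and of other cells in the differences of the members was not tested.

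The other genes of the pathway were grouped by role into 11 lists, which include the members and hold 174 genes, 157 of them tested. Of these, 25 were at least 2-fold higher (15.9%, against 18.7% of all genes) and 11 at least 2-fold lower at 5% O2 (7.01%, against 9.22%), with a median of 0.23. After median-ratio scaling these counts were 16 (10.2%) and 20 (12.7%), and after quantile normalization 18 (11.5%) and 14 (8.92%), and of all 157 genes the sign of 26 and 14 changed, respectively. The shares of all genes tested that were at least 2-fold apart (27.9%), higher (18.7%) or lower (9.22%) are the background of each list below, and no list was tested against it. The matching shares were 25.6% apart, 12.0% higher and 13.6% lower after median-ratio scaling, and 24.7% apart, 12.2% higher and 12.4% lower after quantile normalization.

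Among receptors and adaptors, Kit was lower and Egfr higher at 5% O2. Kit, the receptor by which oocytes sense KIT ligand of granulosa cells, had 148 RPM at 5% O2 and 448 RPM at 20% O2, a difference of -1.59 (interval -1.62 to -1.56). Grb10, an adaptor that dampens insulin receptor signalling, had 133 and 376 RPM, a difference of -1.49. Both were also among the genes with the lowest differences in the table, since only 4.32% of genes lay below Kit and 4.86% below Grb10. Egfr, the receptor of epidermal growth factor, a factor added to the culture medium, had 57.2 RPM at 5% O2 and 15.1 RPM at 20% O2, a difference of 1.86. Irs4, an insulin receptor substrate, had 3.31 and 0.122 RPM (437 and 5 reads, difference 1.94). It averaged 1 RPM or more only through its value at 5% O2. Irs1, named after its values were seen, had 2.74 and 6.75 RPM (-1.05, with 30.9% of its exonic bases shared on the opposite strand), and the other 8 of 13 genes tested were under 2-fold. After median-ratio scaling Insr, the insulin receptor gene, named after its values were seen, was also past 2-fold, at -1.14 against -0.83 as deposited.

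The lipid and AKT phosphatases, which oppose PI3K and AKT, held 0 of 13 genes at least 2-fold apart (27.9% of all genes), and 1 lower gene after either scaling (Inpp5e, at -0.84 and then -1.10 and -1.05, named after its values were seen, with 20.3% of its exonic bases shared on the opposite strand). As deposited, their differences ranged from -0.84 to 0.66. Ppp2ca, a catalytic subunit of phosphatase 2A, had 229 and 144 RPM, a difference of 0.66, but 41.3% of its exonic bases are shared with genes on the opposite strand.

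Of the AKT and related kinases, 4 of 10 genes tested were at least 2-fold higher (18.7% of all genes) and 0 lower (9.22%). These counts were 2 and 1 after median-ratio scaling and 3 and 1 after quantile normalization, where Pdpk1 was the lower gene. Besides Akt1 and Akt2 these were Sgk1, a relative of AKT, with 23.7 and 7.17 RPM (1.59), and Akt1s1. Akt1s1, named after its values were seen, encodes PRAS40, an AKT substrate in mTOR complex 1, and had 73.2 and 31.3 RPM (1.20). Tcl1, an AKT cofactor, had 883 RPM at 5% O2 and 625 RPM at 20% O2, a difference of 0.50.

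Of the 7 genes of the TSC complex and RHEB, only Tsc2 was at least 2-fold apart (27.9% of all genes). Rheb, which is given as the direct activator of mTOR complex 1 and was named after its values were seen, had 59.8 and 46.5 RPM. Of the 12 genes of mTORC1 and mTORC2, Prr5, a subunit of complex 2, had 30.3 and 6.43 RPM (2.08), and Akt1s1 was the other gene past 2-fold (27.9% of all genes), but it was at 0.89 after median-ratio scaling, which left 1. Deptor, an inhibitor of both complexes, had 152 RPM at 5% O2 and 200 RPM at 20% O2, a difference of -0.39 (interval -0.43 to -0.36).

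**Figure D4:**
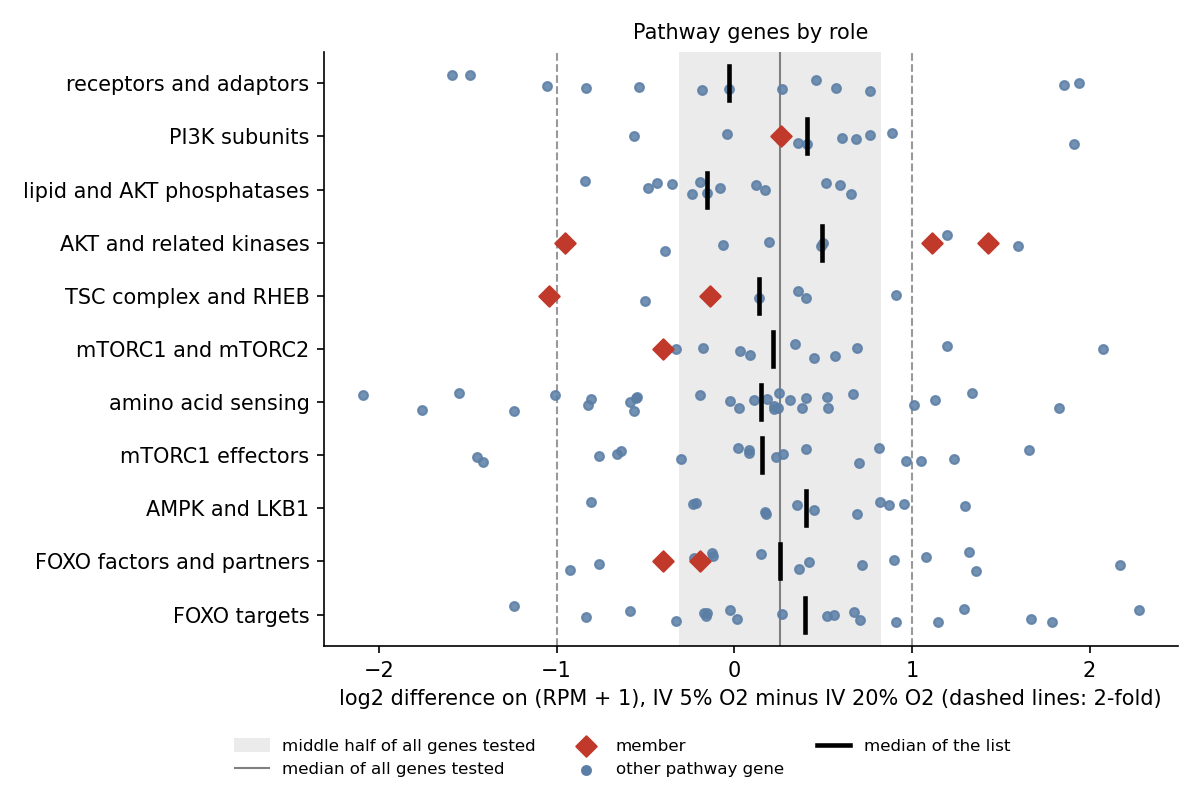
Log2 difference on (RPM + 1), IV 5% O2 minus IV 20% O2, of the tested pathway genes in 11 lists by role, with 1 point per gene, diamonds for members, a black bar at the median of each list, and in grey the median (0.26) and the range from the lower to the upper quartile (-0.31 to 0.82) of all genes tested. The list medians lie between -0.15 (lipid and AKT phosphatases) and 0.49 (AKT and related kinases), and points past the dashed 2-fold lines are found on both sides.

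The genes that pass amino acid supply on to mTOR complex 1 differed in both directions, with 4 of 30 at least 2-fold higher (18.7% of all genes) and 5 lower at 5% O2 (9.22%). After median-ratio scaling 2 were higher (12.0% of all genes) and 7 lower (13.6%), and after quantile normalization 2 and 5. Rragb, a RAG GTPase, had 1.82 RPM at 5% O2 and 11.0 RPM at 20% O2 (-2.09), whereas Rragc, another RAG GTPase, had 478 and 401 RPM (0.25, turning to -0.07 with median-ratio scaling). Lamtor4, a subunit of the Ragulator anchor on the lysosome, had 11.4 and 41.1 RPM (-1.76), but Lamtor3 of the same complex had 166 and 81.9 RPM (1.01). Itfg2, part of the KICSTOR complex, had 1.38 and 5.97 RPM (-1.55). Castor1, an arginine sensor, had 17.2 and 4.11 RPM (1.83), and Castor2, its relative, had 28.2 and 57.7 RPM (-1.01). Flcn, which encodes folliculin, had 168 and 65.9 RPM (1.34). Wdr24 (1.13) and Sesn3 (-1.24) complete the 9 genes. Lamtor3, Castor2, Wdr24 and Sesn3 were named after their values were seen.

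Of the 18 effectors of mTOR complex 1, 3 were at least 2-fold higher (18.7% of all genes) and 2 lower (9.22%), with 1 higher and 3 lower after median-ratio scaling and 2 of each after quantile normalization. Tfeb, a factor of lysosomal genes, had 9.19 RPM at 5% O2 and 2.23 RPM at 20% O2 (1.66), and the others were Maf1 (1.24) and Rps6kb2 (1.05, with 23.7% of its exonic bases shared on the opposite strand), named after their values were seen. Eif4ebp2, a repressor of cap-dependent translation, had 17.0 and 47.1 RPM (-1.41). Rps6, the ribosomal protein that S6 kinase phosphorylates, had 28.5 and 79.6 RPM (-1.45), a value that is uncertain because 30.8% of its 100-base windows are repeated in the genome. Eef2, a translation elongation factor, had 616 and 350 RPM (0.81). In the AMPK and LKB1 list, 1 of 12 genes was past 2-fold (27.9% of all genes), Cab39l at 1.30 (0.99 after median-ratio scaling), which was named after its value was seen. After median-ratio scaling Prkab2, an AMPK subunit gene named likewise, was the only gene past 2-fold, at -1.09 against -0.80 as deposited. Cab39, an LKB1 scaffold gene, had 175 and 154 RPM (0.18), and both scalings turned this to -0.14 and -0.04.

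Among FOXO factors and partners, 4 of 16 genes were at least 2-fold higher (18.7% of all genes) and 0 lower (9.22%), but 3 were higher and 2 lower after median-ratio scaling and 2 higher and 1 lower after quantile normalization. Foxo4 and Foxo6 were among the 4 genes, but Foxo6 (0.416 RPM at 20% O2) averaged 1 RPM or more only through its value at 5% O2. The list also holds 7 genes of 14-3-3 proteins, which hold phosphorylated FOXO in the cytoplasm, and these differed in both directions. Sfn had 26.1 RPM at 5% O2 and 5.02 RPM at 20% O2 (2.17), and Ywhae had 223 and 105 RPM (1.08). Lower values at 5% O2 were found for Ywhab (86.3 and 165 RPM, -0.93), Ywhag (189 and 322 RPM, -0.76), Ywhaq (-0.23) and Ywhaz (420 and 457 RPM, -0.12), and Ywhah was at 0.36. Foxo6 and the 14-3-3 genes other than Sfn were named after their values were seen. The values of Ywhaq, Ywhaz, Sfn and Ywhah are uncertain, because 37.5%, 29.2%, 16.4% and 16.4% of their 100-base windows are repeated in the genome. Usp7, a deubiquitinase of FOXO, had 668 and 500 RPM (0.42).

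Of 20 FOXO target genes tested, 5 were at least 2-fold higher (18.7% of all genes) and 1 lower at 5% O2 (9.22%). Of the 5, Bbc3 and Fbxo32 were under 1 RPM at 20% O2 and averaged 1 RPM or more only through their values at 5% O2. The median of the list was 0.40 against 0.26 for all genes. After median-ratio scaling 4 were higher and 2 lower, and after quantile normalization 4 and 1. Txnip, a regulator of glucose uptake and redox state, had 1424 RPM at 5% O2 and 447 RPM at 20% O2, a difference of 1.67 (interval 1.65 to 1.69), although 19.4% of its exonic bases are shared with a gene on the opposite strand. Fbxo32, which encodes the ubiquitin ligase atrogin-1, had 6.10 and 0.465 RPM (806 and 19 reads, difference 2.28). Bbc3, which encodes the death factor PUMA, had 2.46 RPM at 5% O2 and no reads at 20% O2, so it was at least 33.5-fold higher against a floor of 3 reads. The interval of its log2 ratio begins below this bound, at 4.76. Ccng2 (1.15) and Bcl6 (1.29), named after their values were seen, complete the higher genes, and Sesn3 was lower. With Bbc3 at its bound, the median of the list remained 0.40.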

How the data were processed

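The series holds 24 samples (4 RNA-seq, 8 RRBS and 12 PBAT), of which the 4 RNA-seq samples of class IV oocytes were used. Per the submitters' processing notes, TopHat2 2.0.9 and GRCm38 were used. The authors quantitated reads over merged exons in SeqMonk and deposited log2 values, 1 column per condition. The way the pair of libraries was combined is not given in the sources used here. The study states a correction for feature length, but 99.93% of the IV 5% O2 values and 99.98% of the IV 20% O2 values were within 0.05 reads of a whole multiple of 1 step per column, the same for every gene, so they were read as RPM without a length term. Rows without reads, which the table lists at 0.9 of a read, were set to 0. A level of 0 was given a floor of 3 reads, which is 0.0227 RPM at 5% O2 and 0.0734 RPM at 20% O2. The table holds 1 further value column, which belongs to none of the samples and was not used.

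Where a name had several rows, the row with the highest mean was used. Genes that averaged 1 RPM or more were tested for a 2-fold difference on log2(RPM + 1). Intervals are Clopper-Pearson intervals on reads, and those of ratios between genes are normal-approximation intervals of the log odds ratio. No fit with replicates could be run on pooled columns. The step from reads to calls was tested on simulated reads that held counting error only. That test cannot speak to variation between libraries or cultures. Exonic length, GC content, shared exons and repeated windows (50 or 100 bases, every 10 bases) came from GENCODE vM21 and the GRCm38 genome, with 16553 names matched. The members and lists were chosen with earlier results of these data known. Named were the members, the 20 other pathway genes with the largest differences past 2-fold (33 qualified) and the gene with the most RPM of each list, which is not a ranking of levels per length. Genes named beyond this rule are marked or stand beside a relative. Some results on other genes are not reported here. Calculations ran in Python 3.11.15 with pandas 2.3.3, numpy 2.4.6 and scipy 1.17.1, windows were counted with numba 0.67.0, and plots were drawn with matplotlib 3.10.9.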

Additional observations from a re-analysis of the deposited data

How the results depend on the processing

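No paired analysis was possible because each condition has 1 pooled column without replicate numbers, and for the same reason leaving out a replicate was not run. Of all genes, the count at least 2-fold apart was 4109 and became 1908 with a pseudocount of 5 and 2608 at a mean of at least 5 RPM. Higher genes numbered 1202 with a pseudocount of 5, 1758 after median-ratio scaling, 1800 after quantile normalization and 1691 at a mean of at least 5 RPM, against 2753, and 706 were lower with a pseudocount of 5, against 1356. Of these differences 67.0% were higher as deposited, 46.7% after median-ratio scaling and 49.6% after quantile normalization, as the median of all genes moved from 0.26 to -0.03 and 0.06. Of the pathway genes, 7 were lower with a pseudocount of 5 against 11, and 16 were higher and 20 lower with median-ratio scaling against 25 and 11. Larger pseudocounts shrink low genes and the stricter mean tests fewer genes (10755), while the cause was not tested for quantile normalization. Pik3ca reversed to -0.0514 with median-ratio scaling, which applies 1 factor per column. The other 8 members kept their direction under each alternative run. Fewer reads lie behind the IV 20% O2 column, which limits Bbc3, Irs4, Foxo6 and Fbxo32 among the pathway genes and Cyp11a1 among the markers.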
